A study of Komagataella phaffii with 9 samples.

Results

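The genes described here had more transcript in the strain that lacks *CRA1* than in the control strain of *Komagataella phaffii*, while their mean level in the *CRA1* overexpression strain stayed near the control. They were selected on the values of the deposited libraries themselves. For each library, estimated counts were divided by the library's sum and scaled to 1000000 counts (CPM). A gene was a member if 1 strain at least had a mean of 20 counts, if every *Δcra1* library lay above every control library, if the mean *Δcra1*/control ratio was 2 or more, and if the mean overexpression/control ratio lay between 0.67 and 1.5. The resistance markers, the mitochondrial genome and a set of listed identifiers, among them those around *CRA1*, were left out. This left 94 genes of 5344 sequences, of which 2216 had enough counts to be considered. Since the rule used both comparisons against the control, the levels below are a description and carry no test.

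Transcripts were measured in 9 libraries, 3 for each of 3 strains derived from CBS7435. All strains carried eGFP under the promoter of glyceraldehyde-3-phosphate dehydrogenase as a reporter. The control had this reporter only, the overexpression strain carried an additional *CRA1* cassette, and in *Δcra1* the gene was removed with a split marker cassette. The sample labels call the gene Gal4-like. One transformant stood for each strain, so that the replicates are separate shake-flask cultures of the same transformant and show no spread between transformants. Cells were pre-grown in YP medium and sampled during growth in M2 minimal medium with 5 g L−1 glucose.

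*CRA1* encodes a Gal4-like zinc cluster protein, a class of fungal regulators that bind DNA next to the genes they control, and the study examined it as a regulator of glycolysis and of ethanol formation on glucose. *K. phaffii* is a respiratory yeast that normally oxidises glucose without fermenting it in the presence of oxygen. Comparing a deletion and an overexpression strain with the same control shows which transcripts differ in both directions of the change in *CRA1* dose and which differ in 1 of them only.

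The control libraries held 106345 to 108537 counts, against 114609 to 213700 for overexpression and 193565 to 223824 for *Δcra1*. With a limit of 3 counts, a count of 0 therefore allows up to 28.2 CPM in the shallowest control library and 13.4 CPM in the deepest *Δcra1* library. These limits, like the intervals below, take in counting error alone, since copies made by PCR are not independent molecules. The intervals also make no allowance for the choice of the genes on the same counts, which favours large ratios. *CRA1* (PP7435_Chr1-1522) had 11 counts in each control library, 810, 95 and 316 counts in overexpression replicates 1, 2 and 3, and 0 in every *Δcra1* library, so that the labels hold for the targeted gene and the overexpression replicates differ in its level. No strand setting was stated for the counting, and counts of genes that overlap a neighbour or have a near-identical copy are uncertain. Whether genes whose names end in a copy number, such as *SFT2-2*, have so similar a copy was not examined.

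Of the 2216 genes with enough counts, 641 had every *Δcra1* library above every control library, and 342 of these also reached the ratio of 2. Leaving out 20 of the 342 by identifier gave 322 genes. The overexpression/control ratio was 1.5 or more for 209 of the 322 and 0.67 or less for 19, and the 94 members were the 29.2% in between. Members were thus the smaller share of the genes higher in *Δcra1*, most of which were also higher in the overexpression mean. Of those 209 genes, 199 had a control mean under 20 counts and 107 under 5, against 70 and 13 of the 94 members. Both ratios divide by that control mean, so the split between these groups is imprecise and was not tested.

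**Figure D1:**
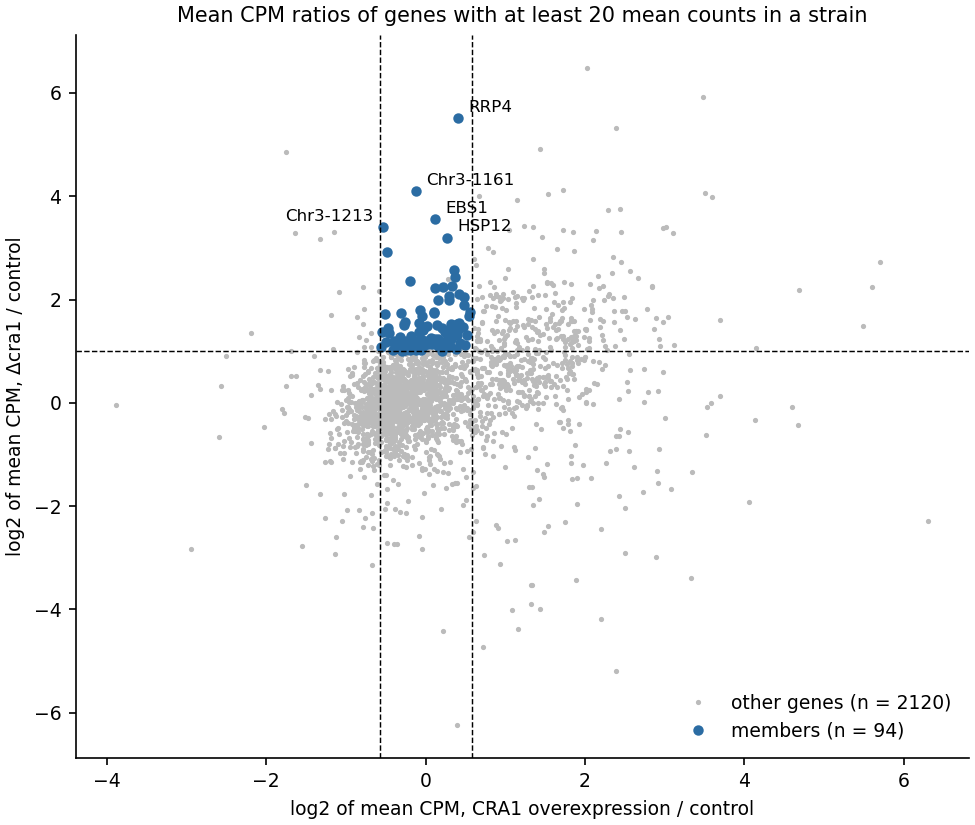
Mean CPM ratios of 94 members (blue) and 2120 other genes (grey) with at least 20 mean counts in a strain, overexpression/control on the x axis and Δcra1/control on the y axis, both as log2. Dashed lines mark 0.67, 1.5 and 2, and genes with a mean of 0 in a strain are not drawn. Most members lie just above the horizontal line, and RRP4 lies highest among them at 45.6.

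Descriptions of single genes below are those of the study's table, largely known from *S. cerevisiae*. The role groups were made for this report with the members' values known, and they differ from the functional columns of that table. Most members lay close to the lower limit. The median *Δcra1*/control ratio was 2.52, 46 of the 94 members had a ratio under 2.5 and 26 reached 3. A ratio of 5 or more was found for 9 members, and 4 reached 10. The median overexpression/control ratio was 1.07, with 53 members above 1 and 41 below. Together the members took 1.38% ± 0.031 of all counts in the control, 1.36% ± 0.065 in the overexpression strain and 4.04% ± 0.10 in *Δcra1* (mean ± SD, n = 3 each). Their summed share was thus alike in the first 2 strains and nearly 3 times as large in the *Δcra1* strain, as the rule makes it.

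The distance between single libraries was smaller than these means. The lowest *Δcra1* library was a median of 1.73 times the highest control library, and at least 1.5 times in 70 members. PP7435_Chr2-0407 had the closest libraries, with 55.3, 27.6 and 103 CPM in the control, 105, 201 and 130 CPM in *Δcra1*, and 197, 0 and 36.0 CPM in the overexpression strain. Its overexpression libraries lay within the *Δcra1* range in replicate 1, at 0 in replicate 2 and within the control range in replicate 3. Among the *Δcra1* replicates, replicate 1 was the highest for 34 members, replicate 2 for 23 and replicate 3 for 37. The same order over all genes is not given, so nothing is read from these numbers. The highest *Δcra1* library exceeded the lowest by a median of 1.33 times, and by 2 times or more in 6 members.

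**Figure D2:**
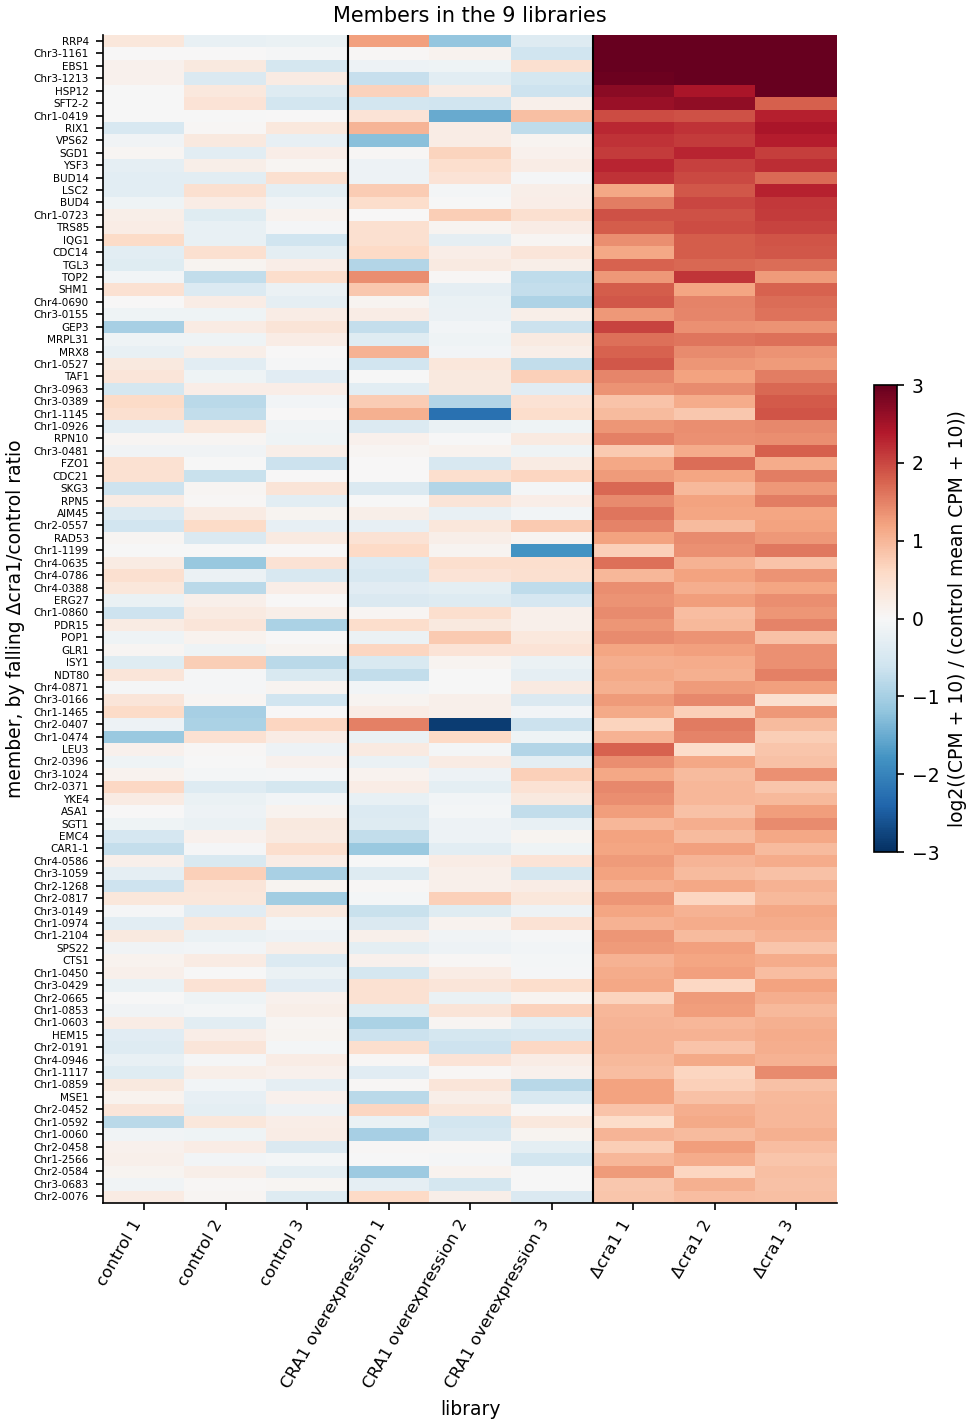
Log2 of (CPM + 10) over (control mean CPM + 10) for the 94 members (rows, by falling Δcra1/control ratio) in the 9 libraries (columns); red is higher and blue lower than the control mean, and colours end at ±3. All 94 members are red in the Δcra1 libraries, and 4 members have no count in overexpression replicate 2.

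The members with the largest ratios included several genes of RNA decay and ribosome assembly. *RRP4* encodes a core subunit of the RNA exosome, the complex that trims and degrades RNA from its 3′ end. Its level was 18.4, 9.21 and 9.40 CPM in the control, 42.1, 0 and 7.19 CPM in the overexpression strain and 699.5, 537 and 451 CPM in *Δcra1*. The control values rest on 2, 1 and 1 counts against 146, 104 and 101 in *Δcra1*, and overexpression replicates 1, 2 and 3 had 9, 0 and 1. The ratio of the summed counts, scaled by library totals, was 45.3, with an exact 95% interval of 17.5 to 167 for counting error. The *Δcra1* libraries stood far from all 6 others, whereas the overexpression/control ratio of 1.33 comes from 1 library with 9 counts.

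*EBS1* encodes a protein that in *S. cerevisiae* takes part in translation inhibition and nonsense-mediated decay. It had 64.5, 73.7 and 37.6 CPM in the control, 51.5, 52.4 and 86.3 CPM in the overexpression strain and 637, 677 and 751 CPM in *Δcra1*, an 11.7-fold higher mean. Control and overexpression libraries overlapped, and the lowest *Δcra1* library was far above both.

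*RIX1*, needed for processing of the precursor of the large ribosomal subunit RNA, and *SGD1*, needed in *S. cerevisiae* for the small subunit, followed with ratios of 5.41 and 4.80. *RIX1* had 55.3, 82.9 and 103 CPM in the control, 173, 96.0 and 43.1 CPM in the overexpression strain and 426, 398 and 483 CPM in *Δcra1*. The overexpression replicates of *RIX1* spread more widely than the control replicates. *SGD1* had 111, 82.9 and 122 CPM in the control, 108, 175 and 115 CPM in the overexpression strain and 484, 553 and 478 CPM in *Δcra1*.

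*YSF3*, a small subunit of the SF3b splicing complex, had 184, 258 and 235 CPM in the control, 201, 323 and 266 CPM in the overexpression strain and 1140.3, 966 and 1086 CPM in *Δcra1*, a ratio of 4.71. On the length-scaled TPM values it was also the member with the highest level in *Δcra1*, with a mean of 7213 TPM against 1225 TPM in the control. With 270 bases it was the shortest member, for which TPM depends most on the estimated effective length. The other members with a role in RNA metabolism had lower ratios: *POP1*, a subunit of RNase P and RNase MRP, 2.48, *ISY1*, a splicing factor, 2.45, and PP7435_Chr1-0060, which has low similarity to the splicing factor U2AF, 2.04. Over these 8 genes the median ratio was 4.75 in *Δcra1* and 1.21 in the overexpression strain.

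**Figure D3:**
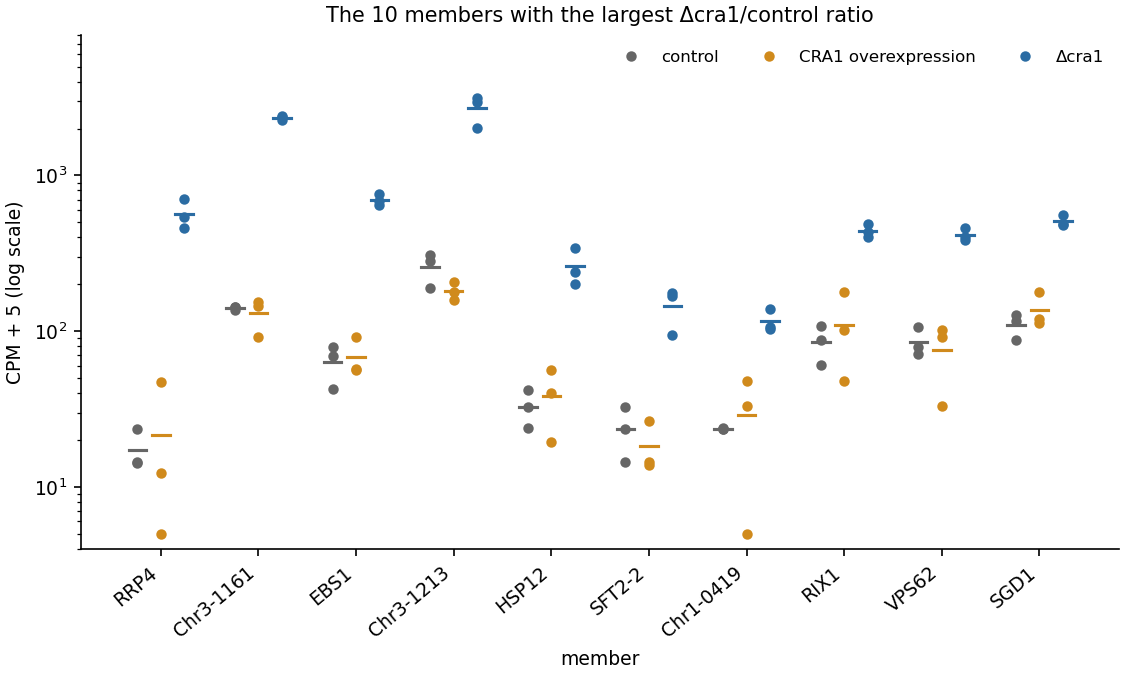
CPM + 5 on a log scale in each library for the 10 members with the largest Δcra1/control ratio; points are libraries and bars are means of 3. For each gene the 3 Δcra1 points lie above all 6 others, from RRP4 (ratio 45.6) to SGD1 (ratio 4.80).

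A pair of the strongest members have no assigned function. PP7435_Chr3-1161, a protein with low similarity to Skg3, had 138, 138 and 132 CPM in the control, 140.4, 148 and 86.3 CPM in the overexpression strain and 2391, 2263 and 2372 CPM in *Δcra1*, a ratio of 17.2. PP7435_Chr3-1213, not conserved in other species but with a domain of bacterial adhesins, reached the highest CPM of all members. It had 277, 184 and 301 CPM in the control, 154, 201 and 173 CPM in the overexpression strain and 2008, 2939.6 and 3127 CPM in *Δcra1*. Its overexpression/control ratio of 0.69 was the third closest to the lower limit. *SKG3* itself (PP7435_Chr4-0335), whose *S. cerevisiae* protein is found at the bud neck, was also a member, with a ratio of 2.73.

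*HSP12*, which in *S. cerevisiae* encodes a small membrane-stabilising protein induced by many stresses and by glucose depletion, had 27.7, 36.9 and 18.8 CPM in the control, 51.5, 34.9 and 14.4 CPM in the overexpression strain and 235, 196 and 335 CPM in *Δcra1*. The counts in the control were 3, 4 and 2, which makes the ratio of 9.20 imprecise. The *Δcra1* libraries lay above all others, which for the control is fixed by the rule and makes the ratio no firmer. 2 further members with a role in stress had smaller ratios. *GLR1*, glutathione reductase, had a ratio of 2.47 and *PDR15*, a multidrug exporter of the plasma membrane, of 2.52. *GLR1* was the only member with every overexpression library above every control library, where 14.8% of the 2216 genes showed this: 221, 193 and 226 CPM in the control against 342, 288 and 288 CPM. It thus stood between the control and the 498, 517 and 567 CPM of *Δcra1*.

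2 of the members among the 10 with the largest ratios act or are thought to act in vesicle traffic. *SFT2-2* encodes a membrane protein of the late Golgi and had 18.4, 27.6 and 9.40 CPM in the control, 9.36, 8.73 and 21.6 CPM in the overexpression strain and 163, 170.5 and 89.4 CPM in *Δcra1*. With 2, 3 and 1 counts in the control, the ratio of the summed counts was 7.49 with an exact 95% interval of 3.30 to 21.0. *VPS62*, required in *S. cerevisiae* for targeting of proteins from the cytoplasm to the vacuole, had 73.7, 101 and 65.8 CPM in the control, 28.1, 96.0 and 86.3 CPM in the overexpression strain and 398, 377 and 456 CPM in *Δcra1*.

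*TRS85*, a subunit of the TRAPPIII complex that is needed for autophagy and for the same cytoplasm-to-vacuole pathway, had 194, 138 and 160 CPM in the control, 234, 175 and 194 CPM in the overexpression strain and 604, 661 and 697 CPM in *Δcra1*. *EMC4*, of the ER membrane complex, and *YKE4*, a zinc transporter of the ER, had ratios of 2.26 and 2.29. PP7435_Chr1-0419, with a DUF88 domain, was also among the 10 members with the largest ratios. It had 2 counts in each control library and 21, 19 and 30 in *Δcra1*, a summed ratio of 6.03 with an interval of 2.63 to 17.0.

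Genes of budding, cytokinesis and the cell cycle formed a group of 7 members, *SKG3* above among them, with a median ratio of 3.70. *BUD14*, which regulates formins and dynein at the cortex, had 27.7, 27.6 and 56.4 CPM in the control, 32.8, 52.4 and 36.0 CPM in the overexpression strain and 201, 176 and 143 CPM in *Δcra1*. *BUD4*, an anillin-like protein at the septin ring, had 55.3, 73.7 and 56.4 CPM in the control, 93.6, 61.1 and 71.9 CPM in the overexpression strain and 196, 279 and 304 CPM in *Δcra1*. *IQG1*, which helps to place Bud4 in *S. cerevisiae*, and *CDC14*, the phosphatase of mitotic exit, had ratios of 3.95 and 3.70. Except in the *Δcra1* libraries, all of these genes were counted fewer than 25 times per library. *SGT1*, a cochaperone needed for kinetochore assembly, and *CTS1*, the chitinase that separates daughter cells, were measured with more counts and had ratios of 2.28 and 2.19.

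Members with roles in DNA metabolism were *TOP2*, topoisomerase II, *RAD53*, a checkpoint kinase, and *CDC21*, thymidylate synthase, with ratios of 3.40, 2.61 and 2.76. *TOP2* had 64.5, 36.9 and 103 CPM in the control and 182, 336 and 179 CPM in *Δcra1*. With 197, 69.8 and 36.0 CPM in the overexpression strain, replicate 1 lay within the *Δcra1* range, and its mean overexpression/control ratio of 1.48 was the nearest to the upper limit.

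The mitochondrial members numbered 9, with a median ratio of 3.22 in *Δcra1* and 0.97 in the overexpression strain. *LSC2* encodes the beta subunit of succinyl-CoA ligase of the TCA cycle and had 27.7, 55.3 and 28.2 CPM in the control, 70.2, 34.9 and 43.1 CPM in the overexpression strain and 95.8, 160 and 223 CPM in *Δcra1*. *SHM1*, mitochondrial serine hydroxymethyltransferase, had a ratio of 3.39, *FZO1*, the mitofusin, of 2.77, and *AIM45*, a putative electron transfer flavoprotein subunit, of 2.67. The remaining 5 act in mitochondrial translation and haem synthesis.

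*MRPL31*, a protein of the large mitochondrial ribosomal subunit, had 166, 166 and 216 CPM in the control, 140.4, 166 and 223 CPM in the overexpression strain and 599, 573 and 594 CPM in *Δcra1*. It was among the clearest of the group, with narrow *Δcra1* replicates. Its overexpression/control ratio of 0.97 averages over overexpression libraries of 140.4 to 223 CPM. *MRX8* and *GEP3*, which act on the mitochondrial ribosome, had ratios of 3.22 and 3.30, and *MSE1*, the mitochondrial glutamyl-tRNA synthetase, of 2.06. *HEM15*, ferrochelatase, had 618, 903 and 837 CPM in the control, 496, 541 and 561 CPM in the overexpression strain and 1629, 1622 and 1716 CPM in *Δcra1*. Its overexpression libraries were all below the control libraries, as in 2 of the 94 members and 21.9% of the 2216 genes, and its overexpression/control ratio of 0.678 was the closest of any member to the lower limit.

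The proteasome members *RPN5* and *RPN10* belong to the 19S regulatory particle, which recognises ubiquitinated proteins. *RPN5* had 267, 230.3 and 179 CPM in the control, 225, 297 and 259 CPM in the overexpression strain and 623, 537 and 675 CPM in *Δcra1*. *RPN10* had 129, 129 and 113 CPM in the control, 136, 122 and 151 CPM in the overexpression strain and 369, 336 and 344 CPM in *Δcra1*. The replicates of *RPN10* were close together in all strains, while those of *RPN5* spread from 179 to 267 CPM in the control. For both genes, control and overexpression overlapped.

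Regulators of transcription and chromatin contributed 6 members with ratios of 2.28 to 2.91. *TAF1*, a subunit of TFIID, had 83.0, 55.3 and 47.0 CPM in the control, 60.8, 78.5 and 108 CPM in the overexpression strain and 187, 155 and 197 CPM in *Δcra1*. PP7435_Chr3-0963, with a BED zinc finger, was counted more often and had 212, 359 and 357 CPM in the control, 248, 384 and 244 CPM in the overexpression strain and 800.2, 847 and 1049.9 CPM in *Δcra1*. The gene named *NDT80* after the meiotic activator of *S. cerevisiae* had a ratio of 2.43, the zinc cluster protein PP7435_Chr4-0388 of 2.57 and *ASA1*, of the ASTRA complex, of 2.28. *LEU3*, regulator of branched-chain amino acid synthesis, had 138, 129 and 113 CPM in the control, 154, 122 and 64.7 CPM in the overexpression strain and 455, 191 and 232 CPM in *Δcra1*, so that its ratio of 2.31 rests largely on *Δcra1* replicate 1.

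In lipid metabolism, *ERG27*, the 3-keto sterol reductase of ergosterol synthesis, had 350.3, 451 and 404 CPM in the control, 295, 305 and 280.4 CPM in the overexpression strain and 1030.1, 976 and 1072 CPM in *Δcra1*. With *HEM15* it was 1 of the 2 members whose overexpression libraries were all below the control. *TGL3*, the triacylglycerol lipase of lipid particles, had 92.2, 129 and 141 CPM in the control, 60.8, 148 and 137 CPM in the overexpression strain and 436, 418 and 407 CPM in *Δcra1*. *SPS22*, named for a protein of the spore wall glucan layer, and PP7435_Chr1-2104, with low similarity to cell wall proteins, had ratios of 2.20 and 2.21. *CAR1-1*, arginase, had 83.0, 138 and 207 CPM in the control, 60.8, 113 and 129 CPM in the overexpression strain and 335, 346 and 286 CPM in *Δcra1*. Its control libraries differed by more than 2 times among themselves.

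**Figure D4:**
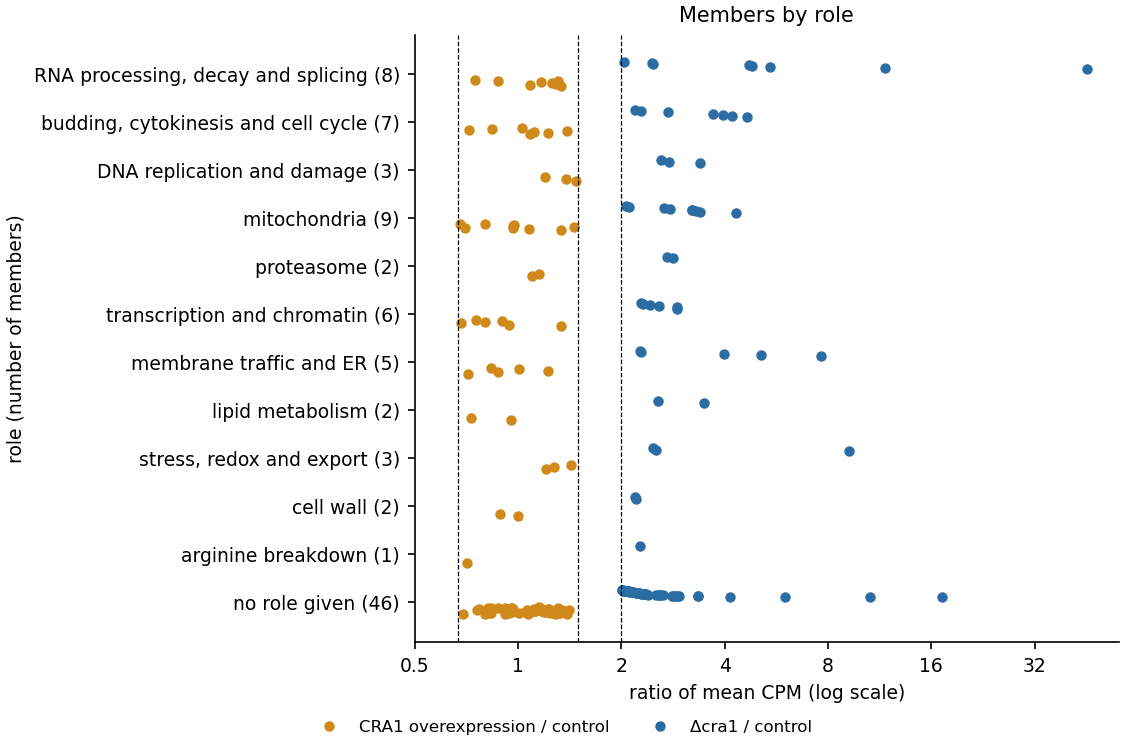
Ratios of mean CPM to the control for each member, grouped by role (number of members in parentheses), for the overexpression strain (orange) and Δcra1 (blue) on a log scale; dashed lines mark 0.67, 1.5 and 2. Roles were assigned with the values known, so that their order is not a result. The median Δcra1/control ratio is 4.75 for RNA processing, decay and splicing and 2.29 for the 46 members without an assigned role.

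Of the 94 members, 44 had a gene symbol in the study's annotated table, 19 were in it without a symbol and 31 were not in it. The table names 714 of the 5344 sequences and was compiled from these same libraries, so that presence in it is not independent of a difference between strains. The 31 members outside it had *Δcra1*/control ratios of 2.01 to 3.34 with a median of 2.25. Of the 4 members with 0 counts in overexpression replicate 2, PP7435_Chr1-1145 and PP7435_Chr2-0407 were outside the table and *RRP4* and PP7435_Chr1-0419 were in it.

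Values just inside and just outside each limit were close. At the *Δcra1*/control limit, PP7435_Chr2-0076, PP7435_Chr3-0683 and PP7435_Chr2-0584 were members at 2.01, 2.01 and 2.02, and PP7435_Chr1-0468, PP7435_Chr4-0906 and the aldehyde dehydrogenase gene *ALD2* stayed outside at 1.99, 1.99 and 1.98. In all, 209 genes with separate libraries and an overexpression mean within the limits had a ratio under 2. At the upper limit for overexpression, *TOP2*, *MRX8* and *GLR1* were inside at 1.48, 1.46 and 1.43, and PP7435_Chr3-0110, *SLK19* and PP7435_Chr2-0729 were outside at 1.52, 1.52 and 1.54. *SLK19*, a kinetochore protein gene of *S. cerevisiae*, had a *Δcra1*/control ratio of 6.87. At the lower limit, *HEM15*, PP7435_Chr4-0388 and PP7435_Chr3-1213 were inside at 0.678, 0.685 and 0.693, and the borate transporter gene *BOR1*, PP7435_Chr3-0266 and PP7435_Chr3-0956 were outside at 0.665, 0.659 and 0.623. 3 genes met both ratios but had a *Δcra1* library within the control range, the polarity scaffold gene *BEM1* at a ratio of 2.93, PP7435_Chr2-0445 at 2.07 and PP7435_Chr1-0058 at 2.01.

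The test across all genes gave the background to these ratios. In edgeR's quasi-likelihood test with TMM factors, 13.1% of 2392 genes were called higher in *Δcra1* than in the control, at an adjusted p under 0.05 and at least 2-fold. All 94 members passed the filter on low counts and 75 of them were called. The rule used this contrast, so nothing is read from that count. The members' median log2 fold change was 1.23, against 0.01 over all genes tested, and their range was 0.89 to 5.32 with a median standard error of 0.29. Of the 19 members not called, 17 had a fitted log2 fold change under 1. The fit scales by TMM factors, which were on average 1.14 times higher in *Δcra1* than in the control, whereas the rule scales by library totals.

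In the comparison of the overexpression strain with the control, 56 of the 94 members passed the filter on low counts. edgeR called 0 of the 56 in either direction, where 7.96% of 1986 genes were called, and 1 of the 56 had an unadjusted p under 0.05. DESeq2 and limma also called 0 members. The 38 members that did not pass were too sparsely counted in these 6 libraries for this test, and since the mean ratio was bounded by the rule, the absence of calls is not a result.

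The rule did not compare the overexpression strain with *Δcra1*, although it nearly fixes the direction. Every *Δcra1* library lay above every overexpression library for 90 of the 94 members, and for 30.3% of the 2216 genes. The 4 exceptions were *TOP2*, PP7435_Chr1-1145, PP7435_Chr2-0407 and PP7435_Chr2-0817. The mean *Δcra1*/overexpression ratio had a median of 2.57, ranged from 1.54 to 34.2 and was at least 2 for 78 members. edgeR called 51 members lower in the overexpression strain, where 5.67% of 3071 genes were called. The number of members fell to 32 without *Δcra1* replicate 1 and to 6 with limma on log2(TPM + 1). The share of all genes called was not counted in those settings, so a loss particular to members cannot be told from a general one.

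The overexpression replicates, with *CRA1* counts of 810, 95 and 316, were ordered differently by different scalings. By library totals, replicate 1 was the highest of the 3 for 30 members, replicate 2 for 32 and replicate 3 for 32, and replicate 1 was the lowest for 42. Over all 2216 genes, replicate 1 was the highest for 33.1%, replicate 2 for 40.0% and replicate 3 for 26.9%, and replicate 1 was the lowest for 51.0%. Scaled by TMM factors, replicate 2, with the fewest *CRA1* counts, was the highest for 47 members and for 54.4% of all genes. On that scale replicate 1, with the most, was the highest for 21 members and the lowest for 49, and the lowest for 58.7% of all genes. With DESeq2's factors, replicate 2 was the highest for 43 members and for 51.3% of all genes. Replicate 1 was then the lowest for 47 members and for 56.0% of all genes. The median member was at 0.995, 1.03 and 1.05 times its control mean in overexpression replicates 1, 2 and 3, and at 2.59, 2.43 and 2.61 times in the *Δcra1* replicates. Over all 2216 genes these medians were 0.819, 0.960 and 0.968 in the overexpression replicates and 1.08, 1.09 and 1.09 in *Δcra1*.

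Apart from the rule, members differed little from other genes in length and position. The median length of the counted sequences was 1483.5 bases against 1302 bases for the 2211 nuclear genes with enough counts, with quartiles of 975 and 2183 bases against 864 and 1946 bases. Members lay on all chromosomes, with 28 on chromosome 1, 26 on chromosome 2, 24 on chromosome 3 and 16 on chromosome 4, or 29.8%, 27.7%, 25.5% and 17.0%, where the background was 30.7%, 26.1%, 23.7% and 19.6%. Their control level was lower, with a median of 51.8 TPM against 125 TPM, a level on which the rule itself acts through the ratio. A control mean under 20 counts was found for 70 members, or 74.5%, and for 44.1% of the 2211 genes. The coefficient of variation between *Δcra1* replicates had a median of 0.149 for members and 0.163 for the 2211 genes, and that between control replicates was 0.243 and 0.192.

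A pair of members had adjacent identifiers in 2 cases, and 1 identifier lay between them in 2 more. How many such pairs a random placement of the members would give was not computed, so no clustering is read from them. *CTS1* stood next to PP7435_Chr3-0166 with ratios of 2.19 and 2.37, and PP7435_Chr1-0859 next to PP7435_Chr1-0860 with 2.09 and 2.53. *CDC14* and PP7435_Chr1-0853 enclosed PP7435_Chr1-0852, which had a ratio of 1.38, and *RIX1* and PP7435_Chr2-0584 enclosed PP7435_Chr2-0585, which was hardly counted. The 10 members with the largest ratios had 15 neighbouring identifiers in the tables. Of the 9 neighbours with enough counts, 2 had a *Δcra1*/control ratio of 2 or more, *GUT2* beside *RRP4* at 4.43 and *LRO1* beside *RIX1* at 4.71, and the median was 1.13. These 2 also had every *Δcra1* library above every control library, as had 342 of the 2216 genes at that ratio. PP7435_Chr3-1214, next to PP7435_Chr3-1213, was at 2749 CPM in the control and 2771 CPM in *Δcra1*.

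Other subunits of the members' complexes, chosen after their values were seen, did not share 1 pattern. *LSC1*, the alpha subunit of succinyl-CoA ligase, had 33.9 ± 23.1 CPM in the control, 69.5 ± 45.2 in the overexpression strain and 137 ± 39.1 in *Δcra1* (mean ± SD, n = 3). Its *Δcra1*/control ratio of 4.05 was near the 4.31 of *LSC2*, and its overexpression/control ratio of 2.05 kept it out of the members. That ratio rests on overexpression replicate 1, at 122 CPM against 43.6 and 43.1 CPM in the others, and was 1.28 without it. The proteasome list of the study's table held 6 genes. *RPT1* and *RPT2*, ATPases of the regulatory particle, had overexpression/control ratios of 5.68 and 4.72 beside *Δcra1*/control ratios of 3.45 and 3.97. Without overexpression replicate 1, their overexpression/control ratios were 3.52 and 3.03, over 0 to 7 counts per control library. *PRE8*, of the 20S core, was called lower in *Δcra1*, with a log2 fold change of -2.58 (standard error 0.35), and *NNK1*, a kinase gene, was called higher in the overexpression strain, where it had 40, 14 and 25 counts against 0, 0 and 1 for the control.

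*MTR3*, another exosome core subunit, fell in *Δcra1* by 1.26 on the log2 scale (standard error 0.20) while *RRP4* was higher. *SKI3*, of the cytoplasmic Ski complex that works with the exosome, had 2061 ± 218 CPM in the control, 1131 ± 367 in the overexpression strain and 4056 ± 196 in *Δcra1*, just under 2-fold. Among splicing genes, *HSH155*, which joins *YSF3* in SF3b, had a *Δcra1*/control ratio of 5.30 and an overexpression/control ratio of 1.22, values that would meet the rule, but its identifier was among those left out. *PRP19* was called higher in *Δcra1* with a log2 fold change of 2.67 (standard error 0.44). *PRP2*, *PRP16* and *PRP43*, helicases of the spliceosome, were called lower, with log2 fold changes of -6.27, -1.08 and -1.70. *TTI1*, which joins *ASA1* in ASTRA, was called lower as well, at -1.07 (standard error 0.34).

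The functional columns of the study's table placed 7 members among its 38 mitochondrial genes, 5 among 50 transcription factors, 5 among 46 secretion genes, 3 among 43 genes of amino acid metabolism, 2 among 26 cell wall genes, 2 among 21 lipid genes, 2 among 24 vacuolar genes and 2 among 6 proteasome genes. One member each stood among 13 actin genes, 9 of pexophagy and autophagy and 4 antioxidant genes. The 28 carbon metabolism genes held no member, nor did the 2 of methanol metabolism, 3 endosomal, 2 exocytosis and 7 tubulin genes. Over the whole table, 63 of 714 genes were members. The table was compiled from genes that differed in these libraries, and 34.1% of its 601 tested genes were called higher and 30.6% lower in *Δcra1*. In the overexpression strain 24.5% of its 527 tested genes were called higher. Of the mitochondrial genes, 15 of 31 tested were called higher and 7 lower in *Δcra1*, and of the transcription factors 17 and 9 of 36. Of the carbon metabolism genes, 5 of 25 were called higher and 11 lower in *Δcra1*, and 14 of 23 were called higher in the overexpression strain.

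Since 63 of the table's 714 genes were members, few were to be met in short lists of nutrient genes. The sterol list held *ERG27* and the nitrogen list *CAR1-1*, of 6 and 14 genes. The lists of iron, alternative carbon and vitamin genes, of 6, 17 and 10 genes, held 0 members. For the vitamin list, 7 of 9 tested genes were called lower and 2 higher in *Δcra1*, where 8.53% of all 2392 genes tested and 30.6% of the table's were called lower. For alternative carbon genes 5 of 13 were called higher and 4 lower, shares near those of the whole table.

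Which genes belong to the group depended on scaling and on single libraries. Library totals placed the median gene 0.14 higher in *Δcra1* than in the control on the log2 scale, and TMM-scaled values placed it at -0.05. With TMM scaling 70 genes met the rule, of which 55 were members, and 31 of the 39 members lost had a ratio under 2. Without overexpression replicate 1, the library with the most *CRA1* counts, 132 genes met the rule, including 84 members and 48 others. Across 3 other scalings and 9 sets lacking 1 library each, 26 members met the rule every time. These were PP7435_Chr3-1161, *EBS1*, *VPS62*, *SGD1*, *YSF3*, *BUD14*, *BUD4*, *TRS85*, *TGL3*, *SHM1*, *MRPL31*, *RPN10*, *FZO1*, *RPN5*, *AIM45*, *RAD53*, *ERG27*, *NDT80*, *YKE4*, PP7435_Chr3-0963 and 6 more identifiers without a symbol. *RRP4* and PP7435_Chr3-1213 met it in 8 of these 12 settings.

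**Figure D5:**
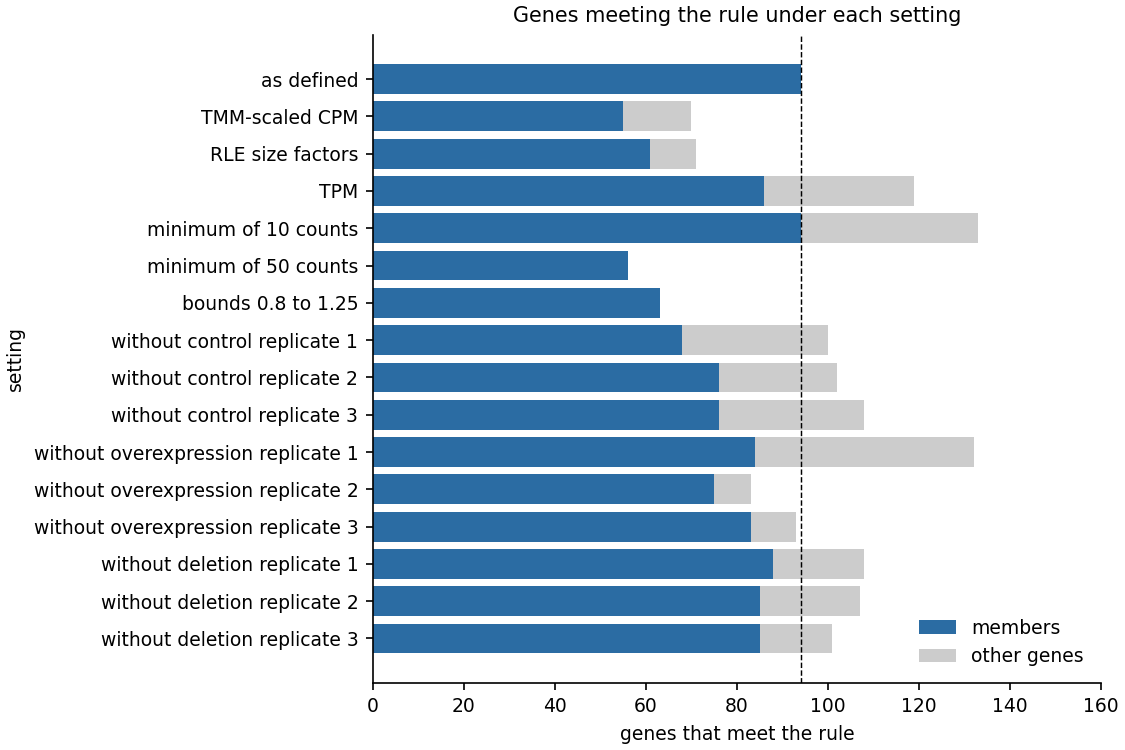
Number of genes that meet the rule as defined and under each other setting; blue bars are members and grey bars other genes, and the dashed line marks 94. TMM scaling keeps 55 members, and leaving out overexpression replicate 1 adds 48 other genes.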

How the data were processed

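RNA was sequenced from 3 cultures each of the control, *CRA1* overexpression and *Δcra1* strains. The authors trimmed the reads and quantified them with kallisto against the CBS7435 annotation. The deposited estimated counts were not normalized, and the deposited TPM values are kallisto's. The deposited tables of counts divided by DESeq2 factors were not used here. Lengths and effective lengths came from the same deposited tables.

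CPM values were estimated counts over the library sum. Estimated counts were rounded, and each 2 strains were compared over their 6 libraries with edgeR 4.0.16 in R 4.3.3 (filterByExpr, TMM, quasi-likelihood, Benjamini-Hochberg adjustment). A call needed an adjusted p under 0.05 and an absolute log2 fold change of at least 1. Standard errors are the log2 fold change over the root of the F statistic. DESeq2 1.42.0, limma 3.58.1 on log2(TPM + 1), other factors and filters, 1 fit over all libraries, a replicate block and leaving out each library were alternatives. The fit was also run on simulated data with larger changes than most members had, so that run says little about them. Intervals of count ratios are exact conditional ones.

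Members and lists were chosen with earlier results of these data known. Named genes were the 10 members with the largest ratio, the 5 with the highest TPM in *Δcra1*, up to 4 per functional group, those nearest each limit, neighbouring members and *CRA1*. Further members named by role, and the roles themselves, were chosen with values known. Names and descriptions came from the study's annotated table. No sequences are shown, since no reference sequence of this strain was used here.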

Additional observations from a re-analysis of the deposited data

How the results depend on the processing

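The number of genes meeting the rule was 56 at a minimum of 50 counts, and 83 to 132 with 1 library left out. Members called higher in *Δcra1* than in the control numbered 75, and 58 to 74 with 1 library left out, 48 with DESeq2, 32 with limma on log2(TPM + 1) and 33 of the 35 that had a mean of at least 50 counts. Members called lower in the overexpression strain than in *Δcra1* numbered 51, and 32 to 62 with 1 library left out, 6 with limma and 21 of 36 with a mean of at least 50 counts. For that comparison all genes were not counted under these alternatives. All genes called higher in *Δcra1* than in the control numbered 313, and 242 to 318 with 1 library left out. They numbered 206 with DESeq2, 243 with limma, 180 in 1 fit over all 9 libraries and 70 of the 856 that reached that minimum. Except for fewer genes tested under the higher count minimum, the cause was not tested. The lowest count for the overexpression strain and *Δcra1*, 32, came without *Δcra1* replicate 1. The members' median log2 fold change stayed between 1.16 and 1.46 under every alternative run, and 0 members were called between the overexpression strain and the control in any of them. Of 576 recomputed fold changes of 43 named members, 0 changed direction and 27 moved by more than their standard error. With the replicate number as a block, 74, 42 and 0 members were called in the 3 comparisons and 302 genes in all were higher in *Δcra1*, each within 1.5 times of the fit without it. Deviations from the strain means in same-numbered libraries correlated at -0.20, -0.05 and -0.09 for *Δcra1* and control, at 0.32, 0.26 and 0.09 for overexpression and control, and at -0.48, -0.21 and -0.04 for overexpression and *Δcra1*. The labels give no shared batch, and in none of the 3 comparisons did every correlation exceed 0.1, so that the numbers were not taken to pair the samples. For overexpression and control, however, libraries with different numbers correlated at -0.29 to 0.01, below every same-numbered value. Whether those cultures were paired is not known, and only the fits with the replicate block allow for pairing. The ratios of complex partners without overexpression replicate 1 were added after seeing the data. Control libraries were the shallowest, and 13 members had a control mean under 5 counts, where ratios are imprecise. Groups of 3 libraries were too small for a test of outliers.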
